A study of Rattus norvegicus with 18 samples.

Results

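Voltage-gated sodium and calcium channels open when the membrane depolarises. Sodium channels are built from a pore-forming alpha subunit and small beta subunits, and carry the rising phase of the action potential. Calcium channels are built from a pore-forming alpha1 subunit with a beta and an alpha2delta subunit, and their calcium triggers transmitter release, firing patterns and gene transcription. When blood flow to the brain is cut, neurons depolarise for lack of energy and take up sodium and calcium through these channels among other routes, so they have long been studied in stroke. Most genes named for a calcium channel gamma subunit (Cacng) encode TARPs, membrane proteins known mainly for carrying AMPA-type glutamate receptors to synapses.

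The 39 channel genes described here were those of the array whose symbol begins with Cacn or is Scn followed by a number and a or b. They had 55 of the 41012 probes, and 12 genes had several. Each gene is described by its probe of highest mean signal. They comprise 10 sodium alpha genes, 4 sodium beta genes, 10 calcium alpha1 genes, 4 calcium beta genes, 3 alpha2delta genes and 8 gamma genes. Probes were tested if well above background on all 3 arrays of at least 1 group, which 37 of the genes and 28634 probes in all were. The skeletal muscle sodium channel gene Scn4a, above background on 1 of 18 arrays, and the retinal calcium channel gene Cacna1f, above background on 9, were not tested.

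Cerebral ischemia was produced in male Crl:CD(SD)BR rats by occlusion of the middle cerebral artery (MCAO), and RNA of the brain cortex was hybridised to 1-colour arrays. The groups, with 3 arrays each, were MCAO with erythropoietin (EPO, the hormone that drives red cell formation) at 6 h, MCAO with saline at 6 h and sham operation at 6 h, and the same 3 groups at 2 h. Sham rats carry no treatment label, and neither the dose of EPO nor the side or extent of cortex sampled is given in the sources used here. Nothing in the labels says that the 3 samples of a group are separate animals, so p-values measure the spread between these samples. All values below are log2 signals relative to the 75th percentile of each array, and differences are log2 differences with the standard error (SE) of 1 limma fit over all 18 arrays. A gene passed the test at an adjusted p under 0.05, with Benjamini-Hochberg adjustment over the 28634 probes. With 3 arrays in a group, the number of arrays limits the precision.

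A technical split touches the dim members. The slope of signal on amount for spiked-in transcripts was 0.914 to 0.941 on 6 arrays and 0.788 to 0.866 on the other 12. The steep arrays read 61.5% to 66.4% of probes well above background, against 68.6% to 80.6% on the others. They were 1 of the 3 EPO arrays, 2 of the 3 saline arrays and 1 of the 3 sham arrays at 6 h, and 1, 1 and 0 at 2 h. The 30 members read above background on all 18 arrays had a median difference of 0.02 between the slope classes (steep minus other), with Cacna1i (-1.23) and Scn2b (-0.86) the farthest from 0, whereas all 7 members dim on some array were lower on steep arrays (-2.02 to -0.36). The part of this split in the comparisons was not tested beyond the values given beside them.

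**Figure D1:**
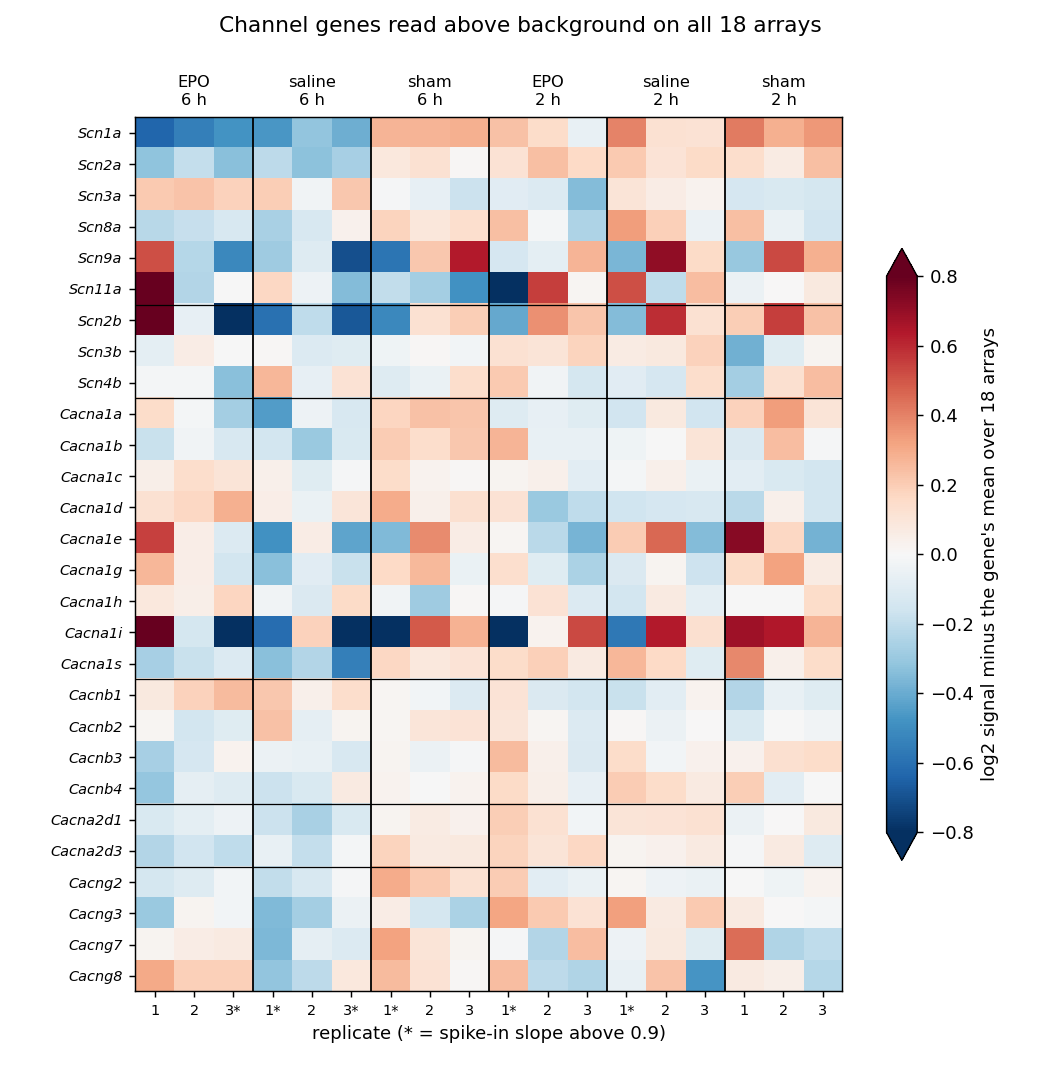
Log2 signal of 28 of the 30 channel genes read above background on all 18 arrays, each minus its own mean over the arrays (colour, ends of the scale also hold values beyond ±0.8), with 1 column per array and groups in blocks. Scn1a and Scn2a are blue on all 6 ischemic arrays at 6 h and on no sham array, and Scn2b, Scn9a and Cacna1i vary widely within groups.

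At 6 h, 9 of the 37 tested channel genes (24.3%) passed the test between saline-treated ischemia and sham, all 9 lower in ischemia, where 11% of all probes tested passed and 6.26% passed lower. They included the sodium channel genes Scn1a and Scn2a, the calcium channel pore genes Cacna1a, Cacna1b and Cacna1s, the alpha2delta genes Cacna2d1 and Cacna2d3, and the TARP gene Cacng2. The drops were small, from -0.67 for Scn1a (1.59-fold lower) to -0.20 for Cacna2d3 (1.15-fold lower). Of the 37, 31 had a negative difference and 6 a positive one, with a median of -0.29 beside -0.13 over all probes tested. With quantile normalization the medians were -0.14 and -0.03, so the members lay 0.16 below the probes' median on the main scale and 0.10 below it after quantile normalization. Fewer cells of a type and less RNA per cell cannot be told apart in bulk tissue. No member passed without the 6 steep arrays, which leaves 1 saline array against 2 sham arrays and 0.705% of all probes called. There 32 of the 37 were negative, with a median of -0.20 beside -0.08 over all probes. Leaving out 1 array of these groups at a time gave 3 lower calls without saline replicate 1 or sham replicate 1, 4 without sham replicate 2, 5 without saline replicate 3 or sham replicate 3, and 4 lower calls and 1 higher call (Scn3a) without saline replicate 2.

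**Figure D2:**
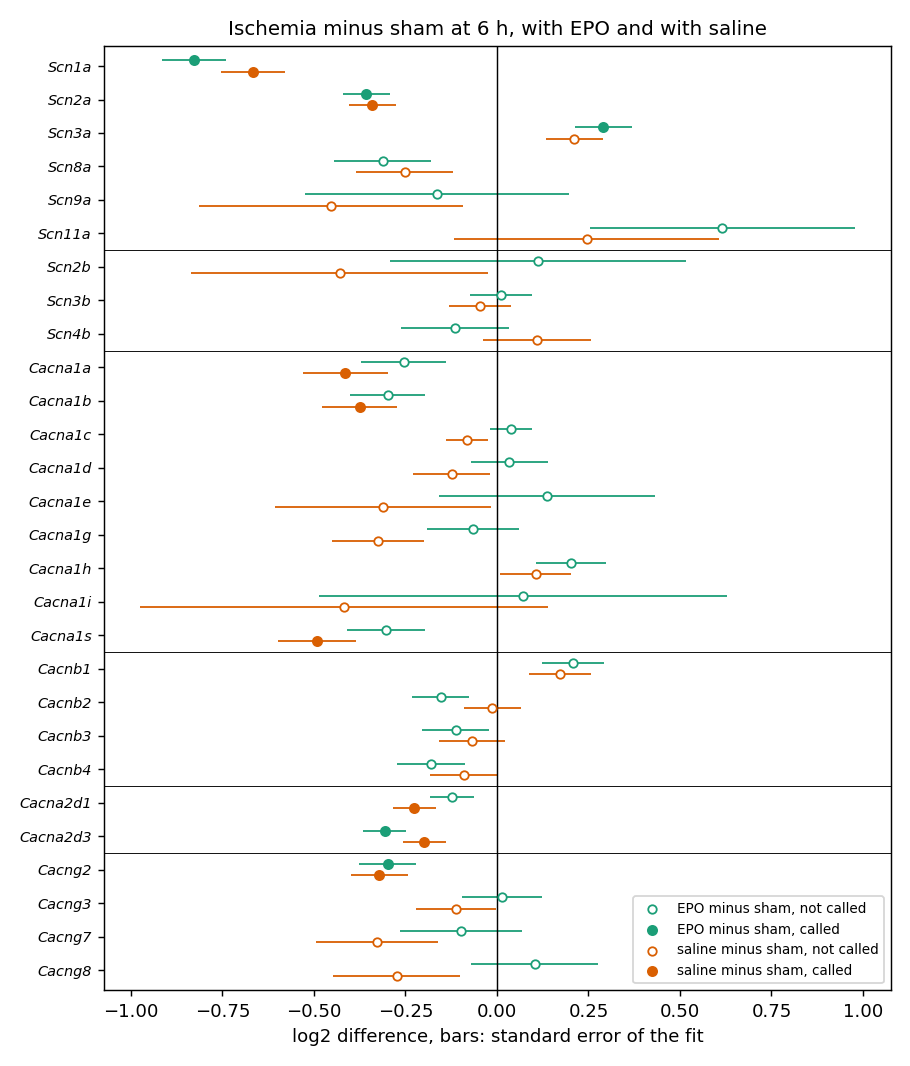
Log2 difference of ischemia minus sham at 6 h for 28 of the 30 channel genes read above background on all arrays, with EPO (green) and with saline (orange), 3 arrays per group. Bars are the SE of the fit and filled points passed the test. Both comparisons use the same 3 sham arrays. Scn1a lies farthest to the left in both, at -0.83 and -0.67. Scn3a lies to the right, at 0.29 and 0.21, and Scn11a, which did not pass, lies farther right in both.

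Scn1a encodes Nav1.1, the sodium channel that fast-spiking inhibitory neurons depend on, and its loss in humans causes the epilepsy known as Dravet syndrome. At 6 h it read 0.71, 0.80 and 0.87 on the EPO arrays, 0.88, 1.03 and 0.95 on the saline arrays, and 1.62, 1.62 and 1.63 on the sham arrays. The sham arrays were nearly equal and lay above every ischemic array, and the EPO arrays lay below every saline array. Saline-treated ischemia differed from sham by -0.67 ± 0.09 (SE; adjusted p = 0.000346), and EPO-treated ischemia by -0.83 ± 0.09 (adjusted p = 4.12e-05), in 3 of 3 arrays each. At 2 h the arrays read 1.58, 1.49 and 1.29 with EPO, 1.74, 1.46 and 1.46 with saline, and 1.76, 1.63 and 1.69 in sham. The saline arrays overlapped with sham there (-0.14 ± 0.09, adjusted p = 0.58), and the EPO arrays lay below it without passing the test (-0.24 ± 0.09, adjusted p = 0.256). The change of the saline-treated effect between the times was -0.53 ± 0.12, just short of the threshold (adjusted p = 0.0558). On slides 3 and 5, which hold 1 saline and 1 sham array of 6 h each, the difference was -0.59 and -0.66. Of 32 alternative settings, Scn1a passed in 31 with saline (all but the fit without steep arrays, adjusted p = 0.074) and in all 32 with EPO.

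Scn2a encodes Nav1.2, the sodium channel of excitatory neurons that sits in the first part of the axon. At 6 h it read 3.24, 3.37 and 3.23 with EPO, 3.35, 3.23 and 3.30 with saline, and 3.65, 3.69 and 3.57 in sham. Both ischemic groups lay below all sham arrays and overlapped each other, with differences of -0.34 ± 0.06 for saline (adjusted p = 0.00423) and -0.36 ± 0.06 for EPO (adjusted p = 0.00202). The saline minus sham difference at 2 h was 0.01 ± 0.06. The 2 other Scn2a probes gave -0.21 and -0.31 in saline-treated ischemia at 6 h, the same direction, and neither passed (adjusted p = 0.382 and 0.177). Scn2a passed in 28 of 32 settings with saline and was not called in the mean over its 3 probes.

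Scn3a, the gene of Nav1.3, a channel of the embryonic brain, went the other way. It read 1.48, 1.51 and 1.46 with EPO, 1.47, 1.25 and 1.49 with saline, and 1.26, 1.21 and 1.11 in sham at 6 h. The EPO arrays lay above all sham arrays, and 1 saline array fell within the sham range. The rise passed with EPO (0.29 ± 0.08, adjusted p = 0.0212) and not with saline (0.21 ± 0.08, adjusted p = 0.103), while EPO and saline differed by 0.08 ± 0.08 (adjusted p = 0.778). With EPO it was called in 24 of 32 settings, and with saline it was called in 3 settings, when the percentile was taken over probes, after normexp correction, or without saline replicate 2. At 2 h the saline arrays (1.38, 1.33 and 1.30) lay above sham (1.14, 1.15 and 1.13), by 0.19 ± 0.08, short of the threshold (adjusted p = 0.331).

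In the RefSeq annotation of the rat assembly GRCr8, Scn3a, Scn2a, Scn1a, Scn9a and Scn7a lie in that order in 1 cluster on chromosome 3. The neighbours Scn2a and Scn3a differed from sham in opposite directions in EPO-treated ischemia at 6 h. With saline, Scn2a was again lower than sham and Scn3a again higher, the latter without passing. Neither gene passed between EPO and saline. The windows around their starts are shown from 250 bases before to 50 after the annotated start. They are RefSeq sequence of GRCr8, at chr3:70710706-70711005 (+ strand) for Scn2a and chr3:70666149-70666448 (- strand) for Scn3a. Capitals mark the AP-1 letters TGANTCA, found in the Scn3a window and in 7.33% of 27457 such windows.
Scn2a: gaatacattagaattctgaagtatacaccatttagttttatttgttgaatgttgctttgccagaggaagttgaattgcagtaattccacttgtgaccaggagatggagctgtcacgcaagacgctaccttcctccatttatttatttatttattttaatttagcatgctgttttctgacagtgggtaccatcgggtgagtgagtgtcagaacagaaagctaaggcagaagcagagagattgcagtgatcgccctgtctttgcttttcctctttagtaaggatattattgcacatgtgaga
Scn3a: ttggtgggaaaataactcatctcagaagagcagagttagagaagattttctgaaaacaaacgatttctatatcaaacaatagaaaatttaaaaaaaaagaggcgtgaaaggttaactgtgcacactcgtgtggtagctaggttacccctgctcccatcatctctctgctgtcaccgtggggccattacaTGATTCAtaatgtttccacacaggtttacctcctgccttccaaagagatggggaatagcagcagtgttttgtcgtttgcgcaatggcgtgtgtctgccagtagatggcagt
Both windows are poor in G and C, 39.3% for Scn2a and 43.3% for Scn3a, beside a median of 52.3% over all windows.

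The remaining sodium alpha genes did not pass. Scn8a encodes Nav1.6, the channel of nodes of Ranvier and of the spike-initiating part of the axon. It read -1.15, -1.11 and -1.05 with EPO, -1.19, -1.05 and -0.89 with saline, and -0.75, -0.83 and -0.79 in sham at 6 h. All ischemic arrays lay below all sham arrays, by -0.31 ± 0.13 with EPO (adjusted p = 0.139) and -0.25 ± 0.13 with saline (adjusted p = 0.275). The second Scn8a probe was also negative with saline, but positive with EPO. The sensory-neuron channel genes Scn9a and Scn11a had SEs of 0.36 and overlapped with sham in all groups at 6 h.

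Sodium beta subunits tune channel gating and act as adhesion molecules. Scn3b, the gene of beta3, was the member of smallest p at 2 h and higher there. Its 2 h values were 6.13, 6.11 and 6.18 with EPO, 6.07, 6.08 and 6.19 with saline, and 5.62, 5.91 and 6.02 in sham, so the groups separated by a narrow margin. The differences of 0.29 ± 0.08 with EPO (adjusted p = 0.143) and 0.26 ± 0.08 with saline (adjusted p = 0.194) did not pass. At 6 h they were 0.01 and -0.05. Scn4b, the gene of beta4, which is abundant in striatum, differed from sham by -0.11 ± 0.15 with EPO and 0.11 ± 0.15 with saline at 6 h. Scn2b overlapped between ischemia and sham at 6 h and had an SE of 0.41.

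**Figure D3:**
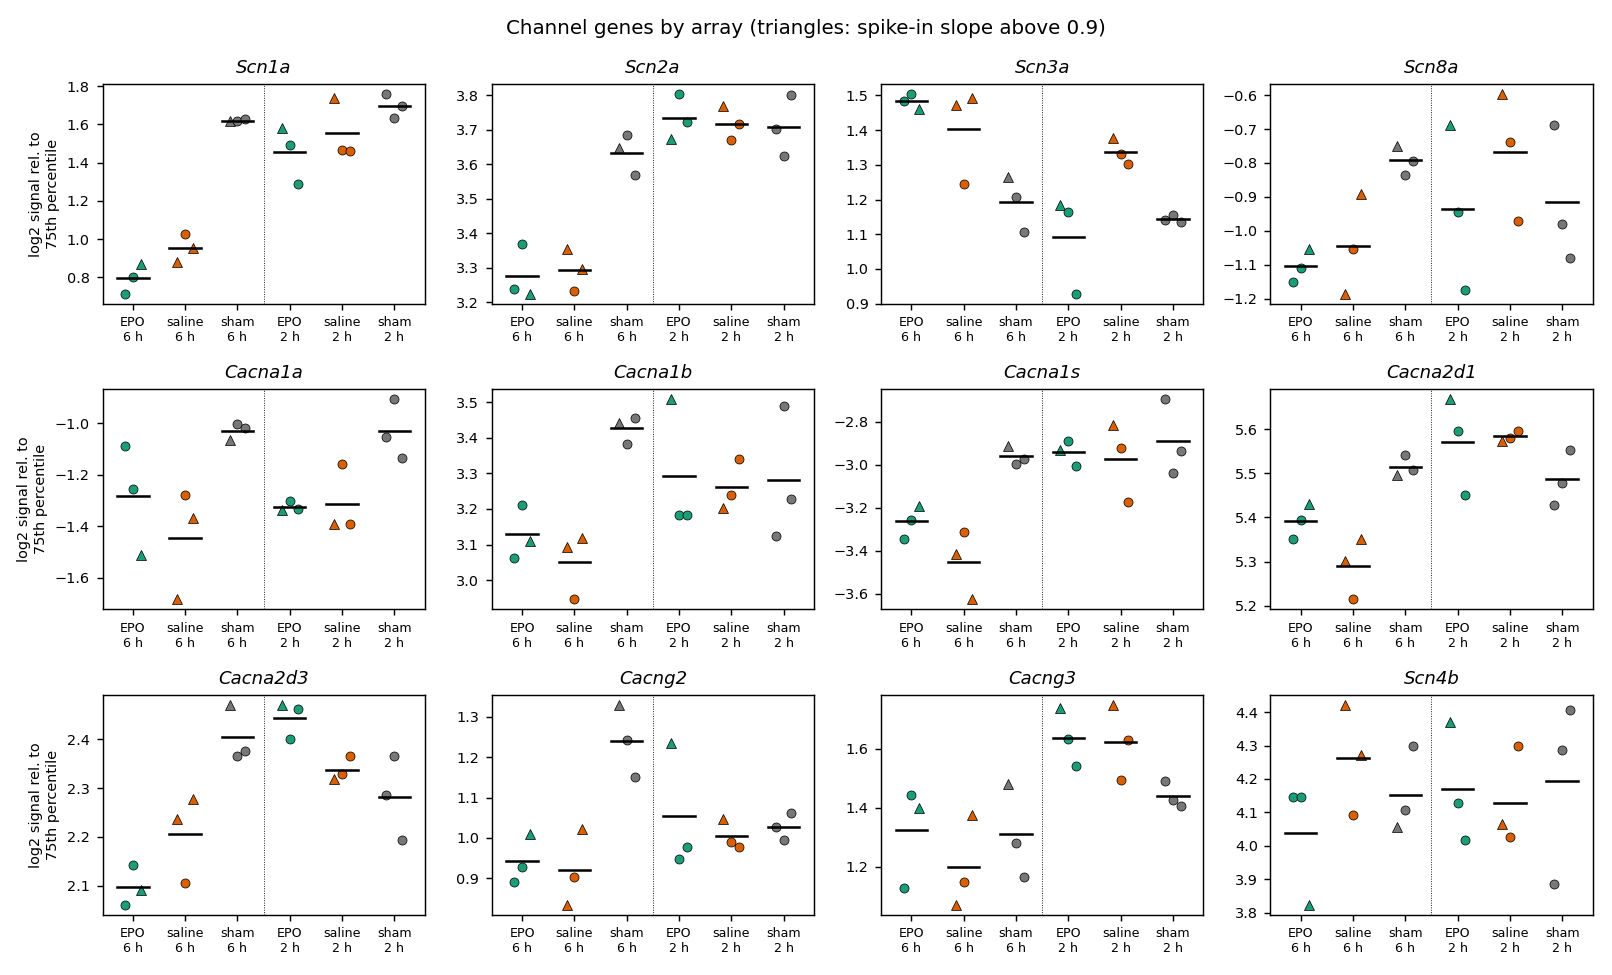
Log2 signal relative to the 75th percentile on each array for 12 channel genes, with group means as lines and triangles for arrays of spike-in slope above 0.9. Each panel has its own axis, which does not start at 0. At 6 h the sham points lie above all ischemic points for Scn1a, Scn2a, Scn8a and Cacng2, and below the EPO points for Scn3a.

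Of the calcium channel pore genes, 3 of the 9 tested fell in saline-treated ischemia at 6 h and none passed with EPO. Cacna1a (Cav2.1, the P/Q-type channel) and Cacna1b (Cav2.2, the N-type channel) carry the calcium that triggers transmitter release. Cacna1a read -1.09, -1.25 and -1.51 with EPO, -1.68, -1.28 and -1.37 with saline, and -1.07, -1.004 and -1.02 in sham. It was lower than sham by -0.41 ± 0.12 with saline (adjusted p = 0.0363) and by -0.25 ± 0.12 with EPO (adjusted p = 0.175), and EPO minus saline was 0.16 with overlapping arrays. The saline arrays of 2 h lay below sham by -0.28 ± 0.12 (adjusted p = 0.351). Cacna1b read 3.06, 3.21 and 3.11 with EPO, 3.09, 2.95 and 3.12 with saline, and 3.44, 3.38 and 3.46 in sham. All 6 ischemic arrays lay below sham, by -0.37 ± 0.10 with saline (adjusted p = 0.0322) and -0.30 ± 0.10 with EPO (adjusted p = 0.0654). EPO minus saline was 0.08 ± 0.10 for Cacna1b, so a difference between the treatments was not shown. A second, dim Cacna1b probe gave -0.39 ± 0.34 with saline, the same direction. With EPO against sham the 2 probes had opposite signs. Cacna1a passed in 21 and Cacna1b in 18 of the 32 settings.

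Cacna1s encodes Cav1.1, the voltage sensor of skeletal muscle, and its probe was dim, near -3 on this scale. It read -3.34, -3.26 and -3.19 with EPO, -3.41, -3.31 and -3.62 with saline, and -2.91, -3.00 and -2.97 in sham. The fall passed with saline (-0.49 ± 0.11, adjusted p = 0.0101) and not with EPO (-0.30 ± 0.11, adjusted p = 0.0723), and EPO minus saline was 0.19 ± 0.11 with overlapping arrays. It did not pass after quantile normalization (-0.25, adjusted p = 0.763) or normexp background correction (-0.18, adjusted p = 0.459), and the second Cacna1s probe was above background on 0 of 18 arrays. Of 5 other skeletal muscle genes measured, none passed in this comparison. Their mean log2 level was -3.74 to -1.79 with EPO, -3.60 to -2.73 with saline and -3.62 to -2.55 in sham, and their part in the Cacna1s difference was not tested.

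The other pore genes tested, Cacna1c, Cacna1d, Cacna1e, Cacna1g, Cacna1h and Cacna1i, did not pass with either treatment. Cacna1c (Cav1.2) and Cacna1d (Cav1.3) are the L-type channels of neurons, which couple activity to transcription. At 6 h they differed from sham by 0.04 ± 0.06 and 0.03 ± 0.10 with EPO, and by -0.08 ± 0.06 and -0.12 ± 0.10 with saline. The intervals of the saline differences, -0.21 to 0.04 and -0.35 to 0.10, hold no change as large as that of Scn1a, for the 1 probe that stands for each gene. The 3 tested Cacna1d probes did not share a sign. With saline 1 was positive and 2 negative, and with EPO 2 were positive and 1 negative. Cacna1g (Cav3.1), a T-type channel that fires at low voltage, read -1.04, -0.80 and -0.89 with saline and -0.55, -0.45 and -0.76 in sham. These arrays did not overlap, and the difference of -0.32 ± 0.13 missed the threshold (adjusted p = 0.125), but passed with slide as a block. Cacna1h (Cav3.2) was 0.20 ± 0.10 with EPO and 0.11 ± 0.10 with saline. Cacna1e (Cav2.3) and Cacna1i (Cav3.3) had SEs of 0.29 and 0.56, and of the 4 Cacna1e probes 3 were negative and 1 positive with saline against sham, while all 4 were positive with EPO against sham.

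None of the 4 calcium channel beta genes, whose cytoplasmic proteins bring the pore to the membrane, passed at 6 h. Cacnb1 alone of them was higher in ischemia in both groups, at 3.45, 3.56 and 3.63 with EPO, 3.59, 3.42 and 3.52 with saline, and 3.39, 3.35 and 3.27 in sham. All ischemic arrays lay above sham, by 0.21 ± 0.08 with EPO (adjusted p = 0.12) and 0.17 ± 0.08 with saline (adjusted p = 0.24). The EPO difference passed after quantile normalization. Cacnb2, Cacnb3 and Cacnb4 differed from sham by -0.18 to -0.11 with EPO and by -0.09 to -0.01 with saline, without passing, and the second Cacnb4 probe gave 0.14 where the first gave -0.09 with saline.

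The alpha2delta proteins lie outside the membrane and raise the number of channels at the surface, and some but not all of them bind gabapentin. Cacna2d1 read 5.35, 5.39 and 5.43 with EPO, 5.30, 5.21 and 5.35 with saline, and 5.50, 5.54 and 5.51 in sham at 6 h. The saline fall was -0.23 ± 0.06 (adjusted p = 0.028), and EPO minus sham was -0.12 ± 0.06 (adjusted p = 0.209). All 6 ischemic arrays lay below sham, and EPO and saline overlapped. Cacna2d3 read 2.06, 2.14 and 2.09 with EPO, 2.24, 2.11 and 2.28 with saline, and 2.47, 2.37 and 2.38 in sham. Its fall was larger with EPO (-0.31 ± 0.06, adjusted p = 0.00339, called in 28 of 32 settings) than with saline (-0.20 ± 0.06, adjusted p = 0.0481, called in 7 of 32), but EPO and saline overlapped and differed by -0.11 ± 0.06, which did not pass. Cacna2d2 was above background on 14 arrays and had an SE of 0.48.

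The TARP gene Cacng2 encodes stargazin, which brings AMPA receptors to the synapse and whose loss gives mice absence seizures. It read 0.89, 0.93 and 1.01 with EPO, 0.83, 0.90 and 1.02 with saline, and 1.33, 1.24 and 1.15 in sham at 6 h. All 6 ischemic arrays lay below sham, with falls of -0.30 ± 0.08 for EPO (adjusted p = 0.019) and -0.32 ± 0.08 for saline (adjusted p = 0.0182). The 6 h sham arrays themselves lay above the 2 h sham arrays (1.03, 0.99 and 1.06) by 0.21 ± 0.08 (adjusted p = 0.375). Saline-treated ischemia at 6 h differed from that at 2 h by -0.08 ± 0.08. Cacng3, a TARP of cortex and hippocampus, fell between the times in saline-treated ischemia, at 1.07, 1.15 and 1.37 at 6 h and 1.75, 1.49 and 1.63 at 2 h (-0.43 ± 0.11, adjusted p = 0.0314). Against sham of the same time it was -0.11 ± 0.11 at 6 h.

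The start windows of Cacna2d1 and Cacng2, which both fell in saline-treated ischemia at 6 h, show how unlike the windows of these genes are. They lie at chr4:20330098-20330397 (- strand) and chr7:111577708-111578007 (- strand) of GRCr8, from RefSeq, and capitals mark GGGCGG (the GC box) in Cacna2d1 and TATAAA (the TATA box) in Cacng2, read on either strand, so that CCGCCC and TTTATA are the same letters on the other strand.
Cacna2d1: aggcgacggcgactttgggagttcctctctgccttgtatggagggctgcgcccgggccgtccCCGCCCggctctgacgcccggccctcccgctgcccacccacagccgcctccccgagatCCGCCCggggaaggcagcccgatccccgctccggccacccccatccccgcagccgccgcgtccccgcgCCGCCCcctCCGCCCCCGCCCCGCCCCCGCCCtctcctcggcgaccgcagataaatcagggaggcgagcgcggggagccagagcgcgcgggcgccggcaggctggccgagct
Cacng2: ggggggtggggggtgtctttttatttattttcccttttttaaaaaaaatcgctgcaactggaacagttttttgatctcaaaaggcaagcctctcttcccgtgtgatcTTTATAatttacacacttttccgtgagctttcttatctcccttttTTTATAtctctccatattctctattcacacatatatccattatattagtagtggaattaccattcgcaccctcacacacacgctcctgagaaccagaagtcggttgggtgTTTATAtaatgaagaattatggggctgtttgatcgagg
G and C make up 78.3% of the first and 39% of the second. Over the 27 members with a window in the table, 14 (51.9%) held a GC box, against 34.9% of all windows, and 2 (7.41%) held a TATA box, against 14.3%. No member window held the cAMP-response letters TGACGTCA or the E-box CACGTG, which 1.91% and 6.65% of all windows hold. The letters TTCAGCACC, the left part of the RE1 element bound by the neuronal repressor REST, stood in the window of Cacng3 alone among members and in 0.379% of all windows. GC boxes may overlap one another, and a match is no evidence of binding. A single window per gene was used, and some, such as those of Cacng2, Cacna1a and Cacna1e, lie at a start inside the annotated gene. The contrast and shares above hold for these windows and not for other starts of the genes.

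With EPO, 6 of the 37 tested genes (16.2%) passed against sham at 6 h, where 16.1% of all probes passed, 6.53% higher and 9.59% lower. Lower were 5, among them Scn1a, Scn2a, Cacna2d3 and Cacng2, all 5 also called with saline, and Scn3a was higher. The median over the members was 0.01 beside 0.00 over all probes, with 20 positive and 17 negative. That balance moved with single arrays: without EPO replicate 1 the median was -0.17 (10 positive and 27 negative; -0.10 over all probes), and without sham replicate 1 it was -0.16 (11 and 26; -0.09 over all probes). Over the 30 members above background on all arrays it was -0.11, with 13 positive and 17 negative. The saline and EPO comparisons share the 3 sham arrays. Of 10 members with several tested probes, 3 had the same sign on all of them with EPO against sham, and 6 with saline against sham. Without the 6 steep arrays 2 passed, Scn1a among them.

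EPO and saline were compared directly in ischemic cortex, which asks whether the drug altered the channel genes. No member passed at 6 h or at 2 h, and 0% of all probes did (limma, adjusted p under 0.05; at an unadjusted p under 0.05, 1 member and 4.13% of all probes at 6 h, and 1 member and 1.33% at 2 h). At 6 h, 28 members were positive and 9 negative, with a median of 0.16 beside 0.05 over all probes. Without EPO replicate 1 at 6 h the median was 0.08 (0.03 over all probes), and 24 were positive. With no filter on dim probes the median over all probes was 0.16, like that of the members. The member of smallest p at 6 h was Cacng8, a TARP of hippocampus and cortex, at -0.23, -0.34 and -0.35 with EPO and -0.85, -0.75 and -0.45 with saline. The EPO arrays lay above all saline arrays, by 0.38 ± 0.17 (adjusted p = 0.778). Cacna1c followed, at -0.93, -0.83 and -0.87 with EPO and -0.94, -1.07 and -0.99 with saline (0.12 ± 0.06). Next was Cacna1g, at -0.44, -0.65 and -0.85 with EPO and -1.04, -0.80 and -0.89 with saline (0.26 ± 0.13). For 25 of the 37 members the 95% interval of the 6 h difference lay within 1 log2 unit of 0, and for Scn2a it ran from -0.15 to 0.12, for Cacng2 from -0.15 to 0.19 and for Scn1a from -0.35 to 0.03.

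The smallest p at 2 h belonged to Scn3a, at 1.18, 1.16 and 0.93 with EPO and 1.38, 1.33 and 1.30 with saline. The EPO arrays lay below all saline arrays, by -0.25 ± 0.08 (unadjusted p = 0.00734 in the limma fit, adjusted p = 1). The change of the EPO effect between 2 h and 6 h was 0.32 ± 0.11 for Scn3a (adjusted p = 0.92), and none of the 37 passed, where 0% of all probes did. Cacna2d3 (-0.22) and Cacna1e (0.74) followed. Cacna2d3 and Scn8a came next at 2 h, at 0.11 ± 0.06 and -0.17 ± 0.13.

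**Figure D4:**
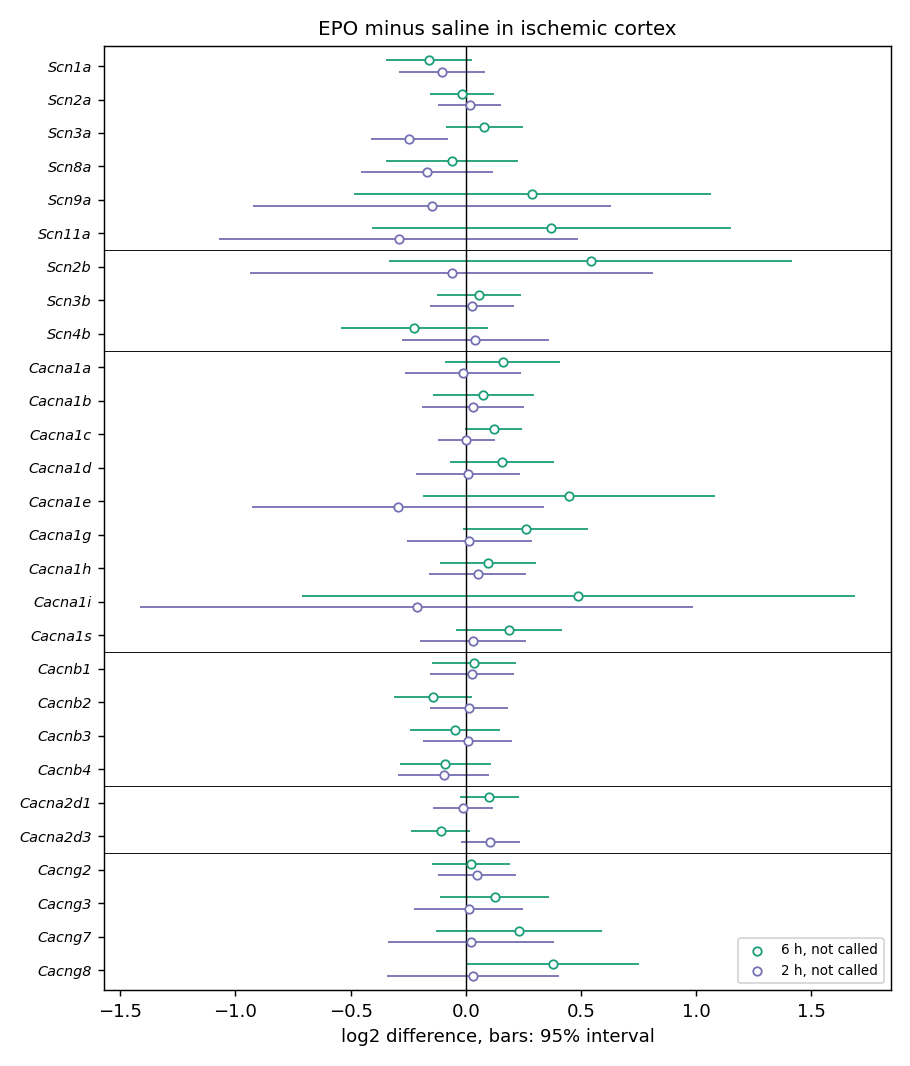
Log2 difference of EPO minus saline in ischemic cortex at 6 h (green) and 2 h (purple) for 28 of the 30 channel genes read above background on all arrays, with 95% intervals from the fit (3 arrays per group). No point passed the test. Intervals are narrow for Cacna1c, Cacna2d1 and Scn2a and wide for Cacna1i, Scn2b and Scn11a.

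At 2 h no member passed between saline-treated ischemia and sham, where 1.24% of all probes did, and none passed with EPO against sham, where 1.33% did. The smallest p with EPO were those of Scn3b, Scn1a and Cacna2d3 (0.16 ± 0.06, adjusted p = 0.266). At an unadjusted p under 0.05, 4 members (10.8%) differed with saline, against 11.6% of all probes: Scn3b and Scn3a upward, and 2 downward, Cacna1a among them. In saline-treated ischemia, 5 members passed between 6 h and 2 h, all lower at 6 h: Scn1a (-0.60), Scn2a (-0.42), Cacna1s (-0.48), Cacna2d1 (-0.29) and Cacng3 (-0.43), where 7.41% of all probes passed, 3.81% lower. Leaving out the 6 steep arrays left none of the 5, and leaving out saline replicate 1 of 2 h left 3 (Scn1a, Scn2a and Cacna2d1). In sham, where 0.482% of all probes passed, no member did between the times, and the smallest p was that of Cacna1c (0.18 ± 0.06, adjusted p = 0.276), followed by Cacng2 and by Cacna1d (0.26 ± 0.10). In the test of the change of the saline-treated effect between the times, 1.43% of all probes passed and no member did in the main fit. Scn1a, Scn2a (-0.35 ± 0.09, adjusted p = 0.0805) and Cacna2d1 (-0.32 ± 0.08, adjusted p = 0.0862) were closest, and 1 to 3 of them passed under 6 other settings. Scn1a also passed without EPO replicate 1 or EPO replicate 3 of 2 h, which are in no group of that contrast.

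The 7 dim members were Scn7a (a sodium-sensing channel of glia), Scn10a (a pain-fibre channel), Cacna2d2, the muscle channel gene Cacng1, Cacng6, and the TARP genes Cacng4 and Cacng5. All 7 were lower with saline than in sham at 6 h (-0.68 to -0.27) and higher with EPO than with saline (0.48 to 0.95), with SEs of 0.26 to 0.96 and no call. Scn7a, for example, read -2.01, -3.82 and -6.07 with EPO, -5.17, -3.65 and -5.47 with saline, and -6.15, -3.49 and -3.79 in sham. The 6 steep arrays read -6.15 to -4.95, and EPO replicate 1 of 6 h read highest of the 18. Without EPO replicate 1 the Scn7a difference of EPO minus saline was -0.18, against 0.80 with it.

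**Figure D5:**
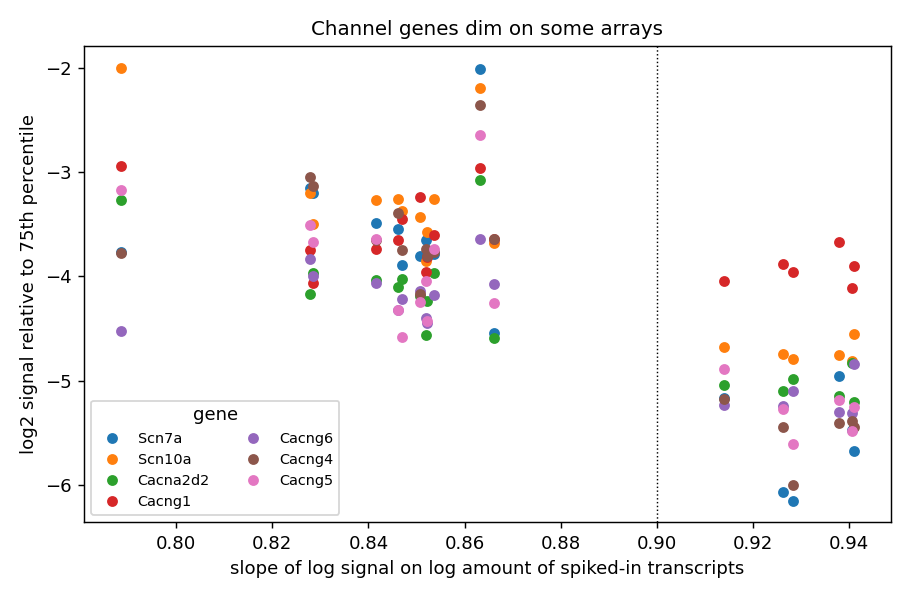
Log2 signal of the 7 tested channel genes that were dim on some arrays, by array, against the slope of signal on amount of spiked-in transcripts; each gene has its own colour and 18 points. To the right of the line at 0.9, the 6 steep arrays read lower for all 7 genes on average. At a slope of 0.863, EPO replicate 1 reads highest of the 9 arrays at 6 h for all 7.

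Genes whose proteins bind these channels moved in both directions at 6 h. Over all probes 11% passed with saline (median -0.13) and 16.1% with EPO (median 0.00). Of 23 measured sodium channel partners, 3 fell with saline and none rose (median -0.18): Fgf14 (-0.54), which binds the tail of the sodium channel, Sptbn4 (-0.30), the spectrin of the axon initial segment, and Cntnap1 (-0.31), of the paranodal junction. With EPO, 6 fell and 1 rose (median -0.11). Of 30 calcium channel partners, 2 rose and 4 fell with saline (median -0.21). Those that rose were Rrad (1.30) and Rem2 (1.24), small GTPases that bind calcium channel beta subunits and lower the current, and Rem2 had risen by 2 h (1.08). With EPO 3 rose and 6 fell (median -0.06). Those that rose with EPO were Rem2 (2.04), Rrad (1.21) and their relative Gem (1.39), and those that fell were Syt2 (-0.72), Stx1a (-0.55), Pclo (-0.49), Akap7 (-0.41), Syt1 (-0.37) and Snap25 (-0.22). With saline, those that fell were Syt2 (-0.65), Stx1a (-0.53), Syt1 (-0.27) and Snap25 (-0.24), of the release machinery at presynaptic calcium channels. Of 14 AMPA receptor genes and partners, Nptx2 (1.78), an AMPA-clustering pentraxin, and Dlg2 (0.35), a scaffold, rose with saline, and Gria2 (-0.36), the subunit that makes the receptor calcium-tight, fell (median over the 14 -0.10). With EPO, 3 of the 14 rose and 1 fell (median -0.05).

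Markers of cell types were read in the same comparisons at 6 h, where 11% of all probes passed with saline and 16.1% with EPO. Of 12 neuron genes, 3 fell with saline at 6 h (Neurod6 at -0.81, Syt1 and Snap25) and none rose, and 4 fell with EPO. Their median difference was -0.15 with EPO (0.00 over all probes) and -0.11 with saline, where that over all probes was -0.13. Their mean log2 level was 2.53 to 2.59 with EPO, 2.55 to 2.62 with saline and 2.74 to 2.80 in sham. Of 9 genes that mark striatal neurons, which lie beneath the cortex, all 9 were higher in both ischemic groups, 7 passing with EPO and 2 with saline. Their mean log2 level was 1.00 to 1.51 with EPO, 0.99 to 1.21 with saline and 0.33 to 0.77 in sham. Of the other marker lists with saline, 4 of 9 endothelial genes fell, 2 rose and 2 fell of 9 microglia and macrophage genes, 1 rose and 3 fell of 6 smooth muscle and pericyte genes, and 2 of 5 blood cell genes rose. Of 11 oligodendrocyte genes 9 were positive (median 0.20), and the 1 that passed, the precursor gene Cspg4, fell. Of 9 astrocyte genes 0 passed in the limma fit, with 5 positive and 4 negative. The part of these shifts in the channel genes' differences was not tested.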

How the data were processed

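RNA of 18 rat cortex samples was measured on 1-colour (Cy3) Agilent arrays. Per the file headers, intensity values are Agilent Feature Extraction 9.1.1.1 processed signals, background-subtracted and detrended within each array. The deposited log2 value table equals the mean log2 processed signal of each probe's spots, with no scaling between arrays (largest difference 5.15e-14). Here control and outlier spots were left out, each array's 75th percentile of log2 signal was subtracted, and limma 3.58.1 in R 4.3.3 fitted 6 group means to 18 arrays (12 residual degrees of freedom), with moderated 2-sided tests and Benjamini-Hochberg adjustment over 28634 probes.

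The members and gene lists were chosen with earlier results of these data known. Values are given for each member past the threshold against sham with saline, between treatments or in an interaction, for the 3 of smallest p where none passed, and for the pore genes of cortex; other members and the partner and marker lists are given by counts. Slide (5), spike-in slope class, replicate number, normalization, background correction, probe choice and leaving out arrays were varied. Same-numbered samples deviated together (r over 0.1 for every number) only for EPO against saline at 2 h (0.887, 0.654 and 0.635). There EPO replicate 3 had a higher r with a saline array of another number (0.767), and both replicate 1 arrays were steep. The numbers were taken to pair the samples only in the replicate block, an alternative setting. Whether they are true pairs is not known, and the SEs and p-values above are from the fit without that block. The fit was tested on simulated data with noise drawn independently for each array, which leaves out any shared deviation of arrays. For saline-treated ischemia against sham at 6 h it recovered 46% of 1.5-fold, 66% of 2-fold, 78% of 4-fold and 89.3% of 8-fold changes. A member that was not called may thus still have changed by such amounts. Promoter windows were matched by symbol, 27 of 39 members. Single results of 2 members are not reported here, though the counts include them.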

Additional observations from a re-analysis of the deposited data

Results flagged for a closer look

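Cacna2d1 was the member whose saline-treated groups stood apart from sham at both times in opposite directions. At 2 h the saline arrays (5.57, 5.58 and 5.60) lay above all sham arrays (5.43, 5.48 and 5.55), by 0.10 on the log2 scale, and at 6 h they lay below all sham arrays, by -0.23. Only the 6 h difference passed the test, and the change between the times was -0.32 ± 0.08 (adjusted p = 0.0862 in the limma fit), which did not. Groups that do not overlap were common: 24.3% of the 37 members at 2 h, where none passed, and 35.1% at 6 h. The share over all probes is not given here.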

How the results depend on the processing

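Over the 32 alternatives, of which 18 left out 1 array, the 20 called pairs of member and comparison gave 640 values: 507 kept direction and call, 133 kept direction but missed the threshold, and 0 turned sign. For saline-treated ischemia against sham at 6 h (9 calls), the counts were 4 without scaling between arrays, 5 without the filter on dim probes, 0 without the 6 steep arrays and 1 with the compared groups alone, and 3 to 9 with 1 array left out; the replicate block gave 6. Over all probes that comparison's 11% called became 4.42%, 0.705% and 4.69% without scaling, without the steep arrays and with the compared groups alone. At 2 h that comparison gave 1 without scaling and 1 with the slope class as a block, in place of 0. For EPO-treated ischemia against sham at 6 h (6 calls), the counts were 3 without scaling, 2 without the steep arrays and 1 with the compared groups alone, and 4 to 7 with 1 array left out. For 6 h against 2 h in saline-treated ischemia (5 calls), they were 1, 0 and 0, and 3 to 5 with 1 array left out; the replicate block gave 4. The change of the ischemia effect (0 calls) gave 1 with the percentile over probes (added after seeing the data), with probes above background on all 18 arrays, with slide as a fixed block or with the slope class as a block, 2 with slide as a random block, 3 with trend and robust variance, and 0 to 1 with 1 array left out. The cause was not tested, except that leaving out arrays or groups leaves fewer samples. EPO against saline gave 0 member calls under every alternative, the replicate block included, and the block changed no call there. Wide SEs limit what can be seen: the 7 members dim on some array had SEs of at least 0.26. Some members above background on all 18 arrays, such as Scn11a and Cacna1i, had SEs above that too.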
